A study of Homo sapiens with 13 samples.

Results

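Mild inhibition of the BMP receptors was described from 3 of the 13 RNA-seq libraries of the series, those made after 5 h of BMP4 with 0, 10 or 30 nM LDN-193189 (LDN). All 61541 genes in the count table were considered, and 14961 averaged 1 CPM (counts scaled to the library total) or more in these 3 libraries. The cells were RUES2 human embryonic stem cells (hESCs) carrying a GFP::SMAD4 fusion, a reporter for the SMAD shared by all BMP signals, grown at low density in mTeSR1. Each of the 3 cultures received 100 ng/mL BMP4, 5 µM IWP2 (an inhibitor of Wnt secretion) and ROCK inhibitor, so that only the dose of LDN differed. Libraries with 100 and 300 nM LDN under the same conditions gave the far end of the dose range, an untreated library in mTeSR gave the level without BMP4, IWP2 and LDN, and 7 libraries of a separate time course (100 ng/mL BMP4 with 5 µM IWP2 and ROCK inhibitor, 0 to 42 h) gave levels from other cultures. The untreated library thus differs from the others by more than BMP4, and its label does not state whether ROCK inhibitor was present. The labels of the 0 h libraries name BMP4 and IWP2 although no time had passed, and these libraries are used below as the start of the time course. One reporter line was used and each dose was sequenced once, so there was no replicate of any dose.

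BMP ligands bind pairs of type I and type II receptors, and the type I kinase phosphorylates SMAD1, SMAD5 and SMAD9, which enter the nucleus with SMAD4. LDN blocks the type I kinase. In hESCs, BMP4 without Wnt secretion is known to lead to loss of pluripotency and to amnion-like cells, with ID genes, feedback inhibitors and GATA and TFAP2 factors among the first genes induced.

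The 3 libraries held 28742690, 33989998 and 32530546 counts at 0, 10 and 30 nM LDN, with 4.22% to 4.35% of counts from the mitochondrial genome, so that 3 counts amount to 0.0883 to 0.104 CPM. The untreated library was shallower (15600931 counts) and had 7.89% mitochondrial counts. All 6 hESC markers examined were present in each of the 3 libraries, with a summed level of 6580.1, 7052 and 7379 CPM. The median log2 ratio of 30 to 0 nM over all tested genes was -0.02 on library totals and -0.004 after TMM scaling.

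Across all genes, more genes were lower than higher under mild block. Between 0 and 30 nM, 163 genes (background 1.09%) were lower by at least 2-fold and 42 (0.281%) were higher. The step from 0 to 10 nM alone put 34 genes (0.227%) at least 2-fold lower and 31 (0.207%) higher, and the step from 10 to 30 nM put 41 (0.274%) lower and 18 (0.12%) higher. For scale, the 2 libraries at 0 h of the time course, which were replicates of one condition made with another protocol (7.60% and 4.29% mitochondrial counts), differed by at least 2-fold at 125 genes (0.8%) in one direction and 134 (0.858%) in the other. That spread is close to the count of lower genes and above the count of higher genes here, so a 2-fold difference of a single gene with no replicate is read below only together with its order over the doses. Over the remaining range, from 30 to 300 nM, 198 genes (1.32%) were at least 2-fold lower and 35 (0.234%) higher. These 2 ranges share the 30 nM library. Over the whole range, 487 genes (3.26%) were at least 2-fold lower at 300 than at 0 nM and 99 (0.662%) higher.

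A trend over the 3 doses, coded as steps, was fitted with the quasi-likelihood method of edgeR, and p-values were adjusted by Benjamini-Hochberg over all 14961 genes. In this test 833 genes fell (5.57% of those tested) and 709 rose (4.74%). Of the 163 genes past 2-fold downwards 142 also had a falling trend, and of the 42 past 2-fold upwards 31 had a rising one. The error in this test is the scatter of 3 single libraries about a line, pooled over genes, so the p-values carry no measure of variation between cultures of one dose. By DESeq2's Wald test 176 genes fell and 104 rose, and with the dose in nM as the linear term 604 fell and 397 rose.

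To describe how much of each response had gone, genes were called responders when they averaged 1 CPM or more in the 5 BMP4 libraries and differed by at least 2-fold between 0 and 300 nM. The percent gone at a dose is the difference in CPM from 0 nM divided by the difference between 0 and 300 nM. It is given with its counting standard error (SE), which covers counting only. Genes at 75% or more at 30 nM are called early-lost, those at 25% or less late-lost, and the rest graded. These classes were drawn from the same values and are a description without a test.

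Among the 438 responders that were lower with LDN, the median percent gone was 32.2% at 10 nM and 60.0% at 30 nM (interquartile range 47.8% to 71.5%). Early-lost genes numbered 82 (18.7%), graded genes 328 and late-lost genes 28. Among the 114 responders that were higher with LDN, the median was 26.0% at 10 nM and 40.2% at 30 nM, with 13 early-lost, 83 graded and 18 late-lost. Over 50% of the range was thus gone by 30 nM in 312 of the 438 lower genes and in 36 of the 114 higher ones. With the untreated library instead of 300 nM as the end of the range, the medians were 41.5% for 930 lower genes and 17.7% for 307 higher genes. On the log2 scale the order of the 2 directions turned, with medians of 42.7% for lower and 53.6% for higher genes. The other alternatives all kept a linear scale. On a linear scale, equal log2 steps take more of a falling gene's range early and less of a rising gene's. The order of the 2 directions thus depends on the scale and is not read as a difference between them.

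Counting error was large for weakly expressed genes. The early-lost genes had a median of 4.73 CPM at 0 nM against 8.30 CPM for graded genes, and 15 of the 82 reached 10 CPM at the higher end. At that level or above, 173 lower genes had a median of 57.5% gone, with 15 early-lost and 2 late-lost. The 36 higher genes at that level had a median of 39.2%, with 1 early-lost and none late-lost. The 15 lower early-lost genes include ENSG00000285976, ENSG00000277991 and RGPD5, and the 1 higher gene is ENSG00000275496. The levels of these genes are uncertain or not ordered over all doses, as described below. The 95% counting interval of the percent gone lay above 50% for 81 of the 173 and below 50% for 22. Just inside the 75% line lay IL11 (75.3%) and CPEB2 (75.3%), and just outside it LINC00467 (74.8%) and IKZF2 (74.9%).

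**Figure D1:**
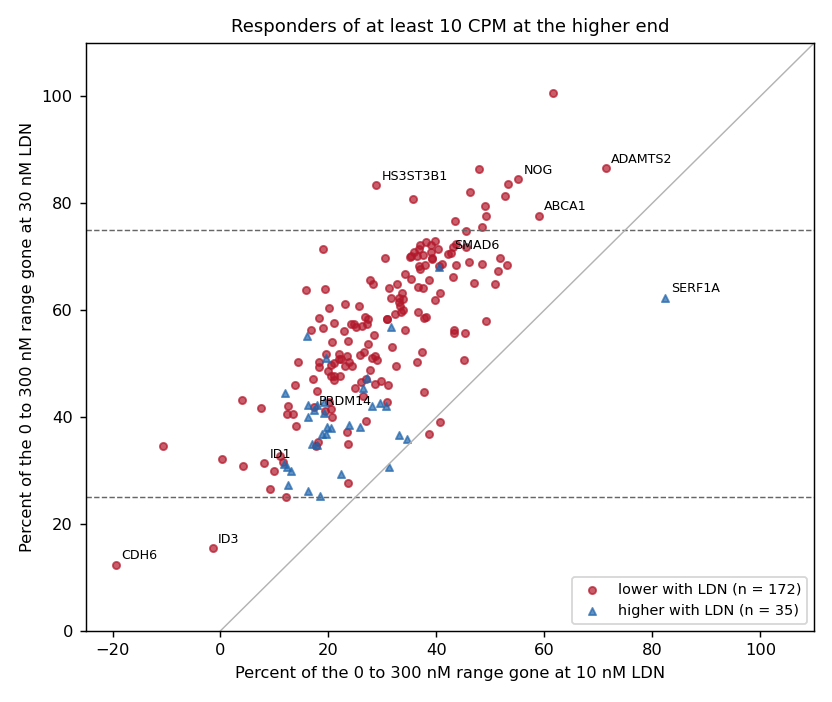
Percent of the 0 to 300 nM range gone at 10 nM (horizontal) and at 30 nM (vertical) for responders of at least 10 CPM at the higher end, 1 point per gene; red circles are 172 genes lower with LDN and blue triangles 35 genes higher with LDN, the dashed lines mark 25% and 75%, the grey line marks equal values, and 2 genes lie outside the axes. NOG lies above the upper dashed line and ID3 below the lower one, and the medians at 30 nM are 57.5% for all 173 lower and 39.2% for all 36 higher genes of this level.

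Secreted and intracellular BMP feedback inhibitors, which close negative loops on the pathway, included NOG and SMAD6, each lower by more than 2-fold at 30 nM. Of the 12 genes in this list 11 were measured, and 5 of them fell, among them NOG, SMAD6, BAMBI and SMAD7, while 6 did not pass the test and none rose. The median log2 ratio of 30 to 0 nM was -0.43, beside -0.02 over all genes. Over all tested genes 5.57% fell and 4.74% rose, and the counts of each list are to be set beside these shares. The level of NOG, a secreted protein that binds BMPs (chr17:56593699-56595611, + strand, GRCh38), was 30.1, 13.7 and 4.89 CPM at 0, 10 and 30 nM. Each dose thus lay below the one before, and at 30 nM NOG stood at 16.2% of its uninhibited level. The fall was -1.27 ± 0.06 log2 per dose step (SE; adjusted p = 4.32e-17, edgeR), and 84.4% ± 1.42 (SE) of the range to 300 nM was gone. In bulk RNA, fewer cells with a transcript and less transcript per cell cannot be told apart, here and in all results that follow.

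SMAD6, an intracellular inhibitor of the BMP receptors and SMADs (chr15:66702236-66782849, + strand), was at 167, 101 and 57.1 CPM and fell by 0.76 log2 per step (adjusted p = 2.52e-20, edgeR), with 70.5% ± 1.0 gone. SMAD7 and BAMBI, which were added after their values were seen, moved less. SMAD7, an inhibitory SMAD of both BMP and TGFβ signaling, was at 76.4, 67.6 and 56.7 CPM with 46.9% gone (adjusted p = 2.16e-05). BAMBI, a pseudoreceptor without a kinase, was at 317, 279 and 214 CPM with 38.3% gone (adjusted p = 1.93e-09). The 95% counting interval of the percent gone was 81.6% to 87.2% for NOG and 68.5% to 72.4% for SMAD6. CHRD was at 2.85, 1.88 and 1.75 CPM (adjusted p = 0.163), and the corepressors SKI and SKIL and the ubiquitin ligases SMURF1 and SMURF2 had log2 ratios between -0.10 and 0.00.

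The ID genes, inhibitors of basic helix-loop-helix factors and classical direct BMP targets, kept most of their level. ID2 and ID4 were lower at 30 nM, ID1 was lower by a smaller part, and ID3 did not pass the test. ID1 (chr20:31605283-31606515, + strand) was at 1055, 1000.1 and 843 CPM, with 31.3% ± 0.98 of the range gone (adjusted p = 1.03e-05, edgeR). ID2 was at 142, 119.7 and 90.3 CPM, with 47.7% ± 1.94 gone (adjusted p = 4.84e-10), and 40.2% gone on the deposited FPKM. ID2 and its relative ID4 thus lost a larger part than ID1, by more than the counting errors. ID4 was at 231, 195 and 155 CPM, with 42.8% ± 1.56 gone (adjusted p = 6.42e-10). ID3 (chr1:23557926-23559501, - strand) was at 325, 328 and 297 CPM, with 15.5% ± 2.28 gone and a trend that missed the threshold (adjusted p = 0.163). ID3 at 10 nM was not below its level at 0 nM, and it was at lower levels at 100 nM (223 CPM) and 300 nM (142 CPM). Measured against the untreated library, the percent gone at 30 nM was 21.5% for ID1, 40.8% for ID2, 10.3% for ID3 and 33.9% for ID4, against 84.1% for NOG, 67.1% for SMAD6 and 69.0% for GATA3.

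On the CPM scale SMAD6 and GATA3 lost most of their response at 30 nM, while ID1 and ID3 lost the smaller part. This contrast depends on the scale. The log2 ratios of 30 to 0 nM and of 300 to 30 nM were -1.55 and -2.35 for SMAD6. For GATA3 they were -1.67 and -4.25, and for ID1 -0.32 and -1.16. In log2 all these genes thus changed more above 30 nM. The promoters of SMAD6, GATA3, ID1 and ID3 are printed to set their sequences side by side. Each runs 250 bases before to 50 bases after the RefSeq start (GRCh38.p14), 5′ to 3′ on the gene's strand. The windows were searched on both strands for GGCGCC, for CAGAC or GTCTG, and for GTCTAGAC, letters that occur in SMAD binding sites, and matches stand in capitals. GTCTAGAC contains no match to the CAGAC or GTCTG pair.
SMAD6: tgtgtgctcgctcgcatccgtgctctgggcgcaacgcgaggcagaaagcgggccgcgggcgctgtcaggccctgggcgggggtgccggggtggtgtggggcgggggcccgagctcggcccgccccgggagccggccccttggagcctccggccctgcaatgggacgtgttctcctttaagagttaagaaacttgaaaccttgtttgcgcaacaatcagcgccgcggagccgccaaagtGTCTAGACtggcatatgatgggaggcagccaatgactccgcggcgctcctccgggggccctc
GATA3: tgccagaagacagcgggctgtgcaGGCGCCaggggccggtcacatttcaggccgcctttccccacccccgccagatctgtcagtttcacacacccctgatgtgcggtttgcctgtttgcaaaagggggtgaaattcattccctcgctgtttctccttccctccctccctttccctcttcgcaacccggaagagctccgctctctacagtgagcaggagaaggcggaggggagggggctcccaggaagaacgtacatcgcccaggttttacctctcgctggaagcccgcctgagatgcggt
ID1: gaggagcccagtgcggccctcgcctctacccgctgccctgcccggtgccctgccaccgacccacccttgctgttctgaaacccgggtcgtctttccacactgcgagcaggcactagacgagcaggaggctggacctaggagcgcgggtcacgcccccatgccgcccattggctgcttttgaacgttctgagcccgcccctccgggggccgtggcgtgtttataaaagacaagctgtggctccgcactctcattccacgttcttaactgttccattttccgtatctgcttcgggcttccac
ID3: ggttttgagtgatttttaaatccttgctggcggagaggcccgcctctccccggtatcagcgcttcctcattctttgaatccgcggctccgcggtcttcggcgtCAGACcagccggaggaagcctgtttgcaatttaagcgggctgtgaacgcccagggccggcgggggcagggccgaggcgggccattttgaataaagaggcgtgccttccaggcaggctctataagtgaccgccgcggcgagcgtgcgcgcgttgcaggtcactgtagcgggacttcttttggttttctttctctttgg

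The SMAD6 window (chr15:66701986-66702285, + strand) held 1 GTCTAGAC, the GATA3 window (chr10:8045083-8045382, + strand) held 1 GGCGCC, the ID3 window (chr1:23559452-23559751, - strand) held 1 CAGAC or GTCTG, and the ID1 window (chr20:31605039-31605338, + strand) held none of these letters. GTCTAGAC was present in 0.201% of all 27305 promoters in the table and in 0.161% of the 11148 belonging to genes of at least 1 CPM. Among responders lower with LDN it stood in 3 of 229 graded genes with a promoter (SMAD6 and the related copies FAM157A and FAM157B) and in none of 42 early-lost genes. GGCGCC was present in 31.2% of promoters of genes of at least 1 CPM, 28.6% of early-lost, 39.7% of graded and 37.5% of 16 late-lost genes. For CAGAC or GTCTG these shares were 42.8%, 42.9%, 45.0% and 56.2%. These windows cover only the start site, and NOG and HEY1 had no entry.

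Transcription factors of the early amnion and surface ectoderm fell, while structural markers of these cells did not pass the test. Of 12 genes in this list 9 were measured, and 6 fell (GATA2, GATA3, TFAP2A, TFAP2C, TBX3 and HAND1) and none rose. The share falling over all tested genes was 5.57%. The median log2 ratio of -1.40 was the lowest among the 18 lists. GATA3, a zinc finger factor of surface ectoderm, amnion and trophoblast (chr10:8045378-8075198, + strand), was at 73.2, 45.0 and 23.0 CPM, a 3.18-fold difference between 0 and 30 nM (adjusted p = 3.72e-17, edgeR), with 69.7% ± 1.36 gone. Its relative GATA2, which was added after its values were seen, was at 74.3, 48.1 and 28.2 CPM, with 64.3% gone (adjusted p = 3.90e-16). TFAP2A, an AP-2 factor of non-neural ectoderm (chr6:10393186-10419659, - strand), was at 44.8, 27.6 and 13.4 CPM with 70.9% ± 1.68 gone (adjusted p = 6.45e-15). All these levels were ordered by dose.

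TFAP2C, the AP-2 member already present in untreated cells (5.90 CPM), was at 42.0, 34.5 and 24.3 CPM (adjusted p = 7.35e-08, edgeR). It lost 51.9% ± 3.14, on the CPM scale less than GATA3 and TFAP2A by more than their counting errors. The log2 ratios of 30 to 0 nM were -0.79 for TFAP2C, -1.67 for GATA3 and -1.73 for TFAP2A. From 30 to 300 nM they were -1.62, -4.25 and -4.4. On the log2 scale TFAP2C thus lost the larger share of its range by 30 nM, so the order depends on the scale. TBX3 and HAND1, T-box and basic helix-loop-helix factors, also fell. Within the time course without LDN, TBX3 was at 3.71 CPM at 4 h and 702 CPM at 42 h, and HAND1 at 5.98 and 2919 CPM. TBX3 was at 2.99, 1.29 and 0.707 CPM (81.3% ± 6.06 gone, adjusted p = 1.32e-04), and HAND1 was at 3.76, 2.35 and 1.01 CPM (74.2% ± 5.47 gone, adjusted p = 1.16e-04). The keratins KRT7 and KRT18, which are present in untreated cells, had log2 ratios of -0.04 and 0.00 and did not pass the test, nor did GABRP, while TFAP2B had no count and ISL1 and VTCN1 were under 1 CPM.

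The homeobox genes DLX and MSX were lower in all 3 measured members, 1 of which passed the test, with a median log2 ratio of -0.98. MSX2, a repressor downstream of BMP in many embryonic tissues, was at 40.0, 31.9 and 20.7 CPM (adjusted p = 5.29e-09, edgeR) with 50.03% ± 2.58 gone. DLX6 at 2.47, 2.41 and 1.14 CPM and DLX5 at 1.496, 0.941 and 0.707 CPM had few counts (37 and 23 at 30 nM) and missed the threshold (adjusted p = 0.0574 and 0.119). The other 5 members were under 1 CPM. Of the HES and HEY repressors, 4 were measured and HEY1 and HES1 fell (list median -0.13). For both lists, the share falling over all tested genes was 5.57%. HEY1, a repressor known as a target of Notch and BMP, was at 30.2, 16.7 and 8.33 CPM with 79.4% ± 2.15 gone (adjusted p = 1.95e-14), whereas HES1 was at 35.7, 31.7 and 27.8 CPM with 34.6% ± 5.19 gone (adjusted p = 0.00699). HEY2 and HEYL had log2 ratios of 0.11 and 0.29 and did not pass.

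**Figure D2:**
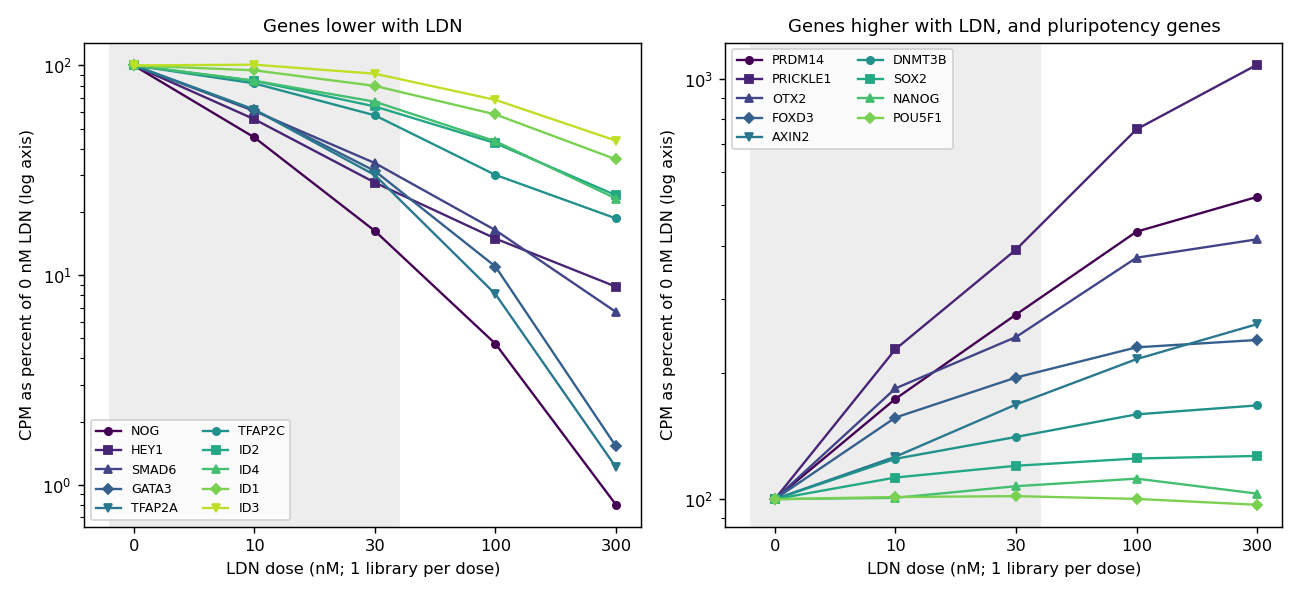
CPM as percent of the 0 nM library (log axis) against LDN dose in nM for single genes, 1 library per dose with no error bars; the grey band marks 0 to 30 nM, and the left panel holds genes lower with LDN and the right panel genes higher with LDN and pluripotency genes. At 30 nM, NOG stands at 16.2% and ID3 at 91.3% of the uninhibited level, while PRDM14 stands at 275%.

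Among BMP receptors and signaling SMADs, which carry the signal from the membrane to the nucleus, only SMAD9 was lower by 2-fold or more. Of 9 measured members 3 fell, beside 5.57% of all tested genes, none rose, and the median log2 ratio was -0.21. SMAD9, the receptor-activated SMAD whose transcript BMP induces, was at 23.7, 13.4 and 9.13 CPM with 68.6% ± 2.97 gone (adjusted p = 8.93e-11, edgeR). The receptors BMPR2 (45.1, 38.2 and 32.7 CPM, adjusted p = 1.19e-04) and BMPR1A (184, 159 and 149 CPM, adjusted p = 1.74e-04) fell by less than 2-fold. ACVR1 was at 22.3, 20.0 and 19.0 CPM and did not pass (adjusted p = 0.198), and the remaining members SMAD1, SMAD4, SMAD5, ACVR2A and ACVR2B lay between log2 ratios of -0.21 and 0.11. BMPR1B was under 1 CPM.

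Among the BMP ligands, 5 of 7 were measured and 2 fell, beside 5.57% of all tested genes, with a list median of -0.76. BMP7 was at 38.7, 27.5 and 18.2 CPM with 62.0% ± 2.73 gone (adjusted p = 1.16e-10, edgeR). On FPKM the percent gone of BMP7 was 51.2%, and its log2 ratio was -0.81 against -1.09 on CPM. The cells' own BMP4 transcript was at 16.1, 11.6 and 8.48 CPM with 68.7% ± 5.605 gone (adjusted p = 3.94e-06). BMP2 was at 2.68, 3.24 and 3.14 CPM and GDF10 at 1.32, 1.15 and 0.738 CPM, and neither passed the test (adjusted p = 0.664 and 0.281), nor did BMP6. BMP5 and GDF6 were under 1 CPM.

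Genes higher with LDN included anterior and neural factors, which define the anterior epiblast and early neural plate. Of 10 genes in that list 5 were measured and 4 rose, beside 4.74% of all tested genes, with a median log2 ratio of 0.98. OTX2, a homeobox factor of the anterior epiblast and forebrain (chr14:56799905-56816693, - strand), was at 12.0, 21.9 and 29.1 CPM, a 2.42-fold higher level at 30 nM (adjusted p = 4.31e-10, edgeR), with 45.4% ± 3.06 of the response gone. HESX1, a homeobox repressor of the anterior epiblast, was at 4.49, 6.97 and 8.95 CPM with 56.8% ± 8.30 gone (adjusted p = 1.23e-04). ZIC2 was at 123, 161 and 167 CPM (adjusted p = 5.61e-06). The levels of OTX2, HESX1 and ZIC2 were higher at each step, and OTX2 at 30 nM remained below the untreated library (58.9 CPM).

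Of 15 pluripotency genes, all measured, 6 rose (PRDM14, FOXD3, DNMT3B, SOX2, ZSCAN10 and DPPA4) and KLF4 fell, and the median log2 ratio was 0.10. The shares over all tested genes were 4.74% rising and 5.57% falling. PRDM14, a transcriptional regulator of pluripotent and germ cells, was at 14.6, 25.2 and 40.1 CPM, 2.74-fold higher at 30 nM (adjusted p = 9.33e-14, edgeR), with 41.3% ± 2.17 gone. FOXD3, a forkhead factor of pluripotent cells (chr1:63322567-63325128, + strand), was at 26.2, 41.0 and 51.1 CPM with 68.0% ± 4.37 gone (adjusted p = 2.57e-10). At 30 nM FOXD3 had passed the untreated library (35.6 CPM), and it was higher still at 300 nM (62.7 CPM). The DNA methyltransferase DNMT3B was at 1394, 1739 and 1960.1 CPM (adjusted p = 5.40e-11). Of the 3 core factors, whose loss marks exit from pluripotency, 1 rose. SOX2 was at 338, 380.1 and 405 CPM (log2 ratio 0.26, adjusted p = 6.25e-05), with 348 CPM in the untreated library, so the levels at 10 and 30 nM lay above that library. NANOG was at 90.6, 91.3 and 97.3 CPM (adjusted p = 0.199) and POU5F1 at 2391, 2419.9 and 2431 CPM (adjusted p = 0.567), and neither passed. KLF4, which stood at 1.60 CPM in the untreated library, was at 6.65, 5.97 and 3.57 CPM with 75.5% ± 10.03 gone (adjusted p = 0.00523). On FPKM the percent gone of KLF4 was 55.1%. The hESC markers as a list had 3 of 6 members rising (SOX2, DNMT3B and TDGF1) and none falling, with a median of 0.14. This list repeats SOX2 and DNMT3B from the pluripotency genes and shares TDGF1 with the Nodal pathway genes, so it is no separate observation.

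**Figure D3:**
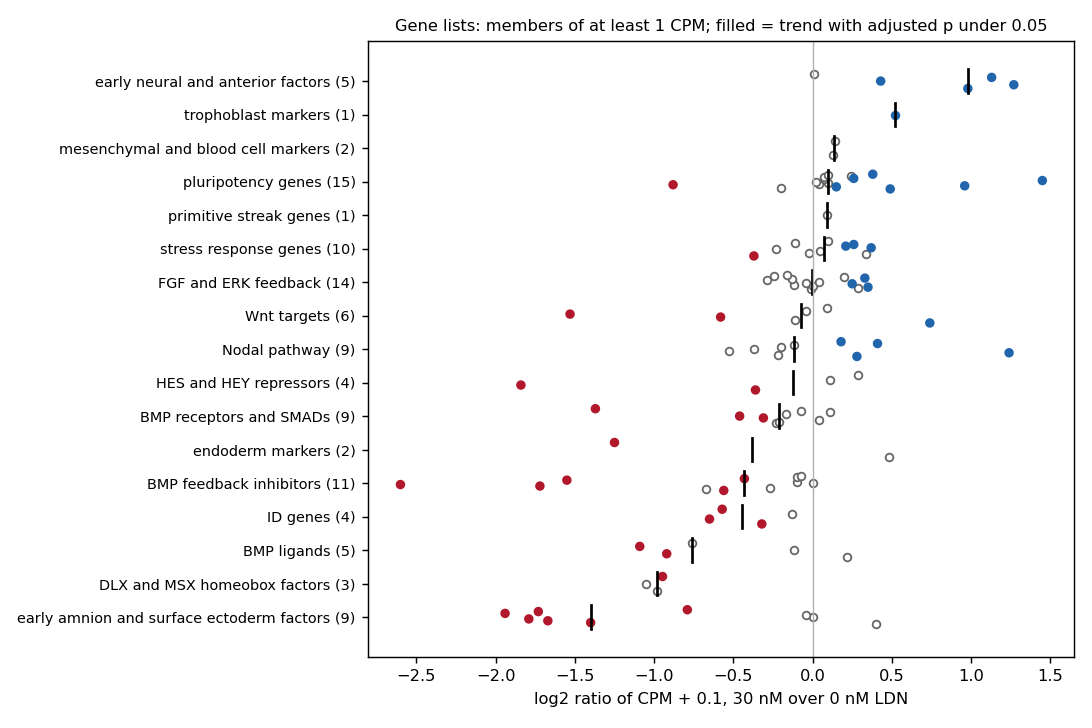
Log2 ratio of CPM + 0.1 at 30 nM over 0 nM LDN (horizontal) for the measured members of 17 gene lists (vertical, number measured in brackets), 1 point per gene; filled points, red for lower and blue for higher, had a trend with adjusted p under 0.05, open points had not, and black bars are medians. Early amnion factors lie lowest, with a median of -1.40, and anterior factors highest, with a median of 0.98.

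The other signaling lists moved in a mixed way. Of 9 measured Nodal pathway genes 4 rose and none fell, with a median of -0.12. Over all tested genes 4.74% rose and 5.57% fell. LEFTY1, a Nodal antagonist, was at 1.60, 1.74 and 3.90 CPM (adjusted p = 0.00213, edgeR), and its near-identical neighbour LEFTY2 at 5.98, 4.35 and 4.12 CPM (adjusted p = 0.0998). Since reads can be split between this pair, their sum is less affected, and it was 7.58, 6.09 and 8.02 CPM, a log2 ratio of 0.08. The transducer SMAD3 was at 8.73, 9.91 and 11.6 CPM (adjusted p = 0.0426). NODAL itself was at 1.46, 1.59 and 1.11 CPM and did not pass.

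Of 6 measured Wnt target genes 2 fell and 1 rose (median -0.08), in cultures that all received IWP2. The shares over all tested genes, for this list and the FGF list below, were 5.57% falling and 4.74% rising. NOTUM, a secreted Wnt deacylase (chr17:81952507-81961840, - strand), was at 34.3, 21.98 and 11.8 CPM with 67.6% ± 2.13 gone (adjusted p = 5.30e-13, edgeR). AXIN2, a feedback inhibitor of β-catenin, went the other way at 15.3, 19.4 and 25.8 CPM with 42.2% ± 4.41 gone (adjusted p = 1.60e-06). NKD1, an inhibitor of Wnt signaling and the other falling member, was at 8.52, 5.71 and 5.66 CPM (adjusted p = 0.0299), but its log2 ratio of -0.58 was -0.04 on FPKM. Of 14 measured FGF and ERK feedback genes 3 rose (DUSP6, SPRED2 and ETV4) and none fell, with a median of 0.00. DUSP6, a phosphatase of ERK, was at 85.8, 98.3 and 109 CPM (adjusted p = 2.02e-05), and SPRED2 at 15.1, 17.6 and 19.0 CPM (adjusted p = 0.0374). FGF4 was at 15.0, 13.7 and 12.3 CPM with 25.02% ± 7.55 gone and did not pass (adjusted p = 0.157). With the deposited FPKM in place of counts the percent gone of FGF4 was 8.53%.

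Markers of other lineages were mostly under 1 CPM. The summed level at 0, 10 and 30 nM was 4.07, 2.88 and 3.72 CPM for 6 primitive streak genes and 3.31, 3.50 and 2.95 CPM for 5 endoderm markers. Of 6 primitive streak genes only EOMES reached 1 CPM (2.71, 2.03 and 2.89 CPM, adjusted p = 0.862, edgeR). Of 5 endoderm markers GATA6 (1.53, 1.03 and 0.584 CPM, adjusted p = 0.0475) fell and AFP (1.43, 2.15 and 2.03 CPM) did not pass. Of 8 trophoblast markers SDC1, a proteoglycan at 73.8 CPM in untreated cells, was measured and rose (39.7, 49.9 and 56.9 CPM, adjusted p = 2.01e-06), while CGA, CGB5, GCM1, VGLL1 and XAGE2 had no count in the 3 libraries. Of 8 mesenchymal and blood cell markers COL1A1 and COL1A2 were measured, with log2 ratios of 0.13 and 0.14 and no trend, and DCN, LUM and HBG1 had no count. Of 10 stress response genes 3 rose and 1 fell, with a median of 0.07 and a summed level of 717, 761 and 769 CPM. For all lists of this paragraph, the shares over all tested genes were 4.74% rising and 5.57% falling. ASNS, asparagine synthetase, was at 148, 120.0 and 115 CPM (adjusted p = 6.51e-05) and HMOX1, heme oxygenase, at 37.2, 44.2 and 48.0 CPM (adjusted p = 6.56e-04). The part of stress in the other results was not tested.

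Beyond the lists, the genes with the largest percent gone at 30 nM were picked by their values and are described without a test. Among those ordered over the 3 doses and of at least 10 CPM, ADAMTS2, a procollagen protease, was at 17.3, 10.9 and 9.59 CPM and then changed little to 300 nM (8.39 CPM), so that 71.4% was gone at 10 nM and 86.5% ± 7.87 at 30 nM. HS3ST3B1, a heparan sulfate sulfotransferase, was at 19.4, 16.5 and 11.0 CPM with 83.3% ± 7.37 gone, and PTCHD1, a patched-domain membrane protein, at 13.4, 10.1 and 7.53 CPM with 82.0% ± 8.55 gone. These 3 genes lost less than 2-fold in all between 0 and 30 nM, and their difference to 300 nM was itself little over 2-fold. On FPKM the percent gone was 57.4% for ADAMTS2, 83.0% for HS3ST3B1 and 124% for PTCHD1, and against the untreated library it was 176% for PTCHD1.

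RAI1, a chromatin protein (chr17:17681458-17811453, + strand), joined a large fold with an early loss. It was at 13.2, 6.71 and 3.17 CPM, 4.07-fold lower at 30 nM, with 81.4% ± 2.94 gone. The long non-coding RNA PCAT14 (chr22:23536881-23547797, + strand) was at 501, 288 and 145 CPM, 3.44-fold lower, with 71.9% ± 0.49 gone. PCAT14 stood at 0.961 CPM in untreated cells and 6.15 CPM at 300 nM, so its graded loss ran over a wide range of levels. The lncRNA ENSG00000241860 was at 30.4, 21.4 and 14.2 CPM with 86.3% ± 4.53 gone.

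Among the 50 lower responders of at least 50 CPM at the higher end, the median percent gone was 51.1%, and the genes named in this paragraph were picked from them after their values were seen. AHNAK, a very large scaffold protein, was at 70.6, 50.8 and 31.2 CPM (70.0% ± 2.10 gone), and COL9A2, a type IX collagen chain, at 109.7, 72.6 and 42.6 CPM (68.5% ± 1.39 gone). Both were near the percent gone of SMAD6 and GATA3. FBN2, a fibrillin of microfibrils, was at 68.1, 47.4 and 36.2 CPM (66.2% ± 2.67 gone). EFNB2, a membrane-bound ephrin ligand, was at 69.2, 46.8 and 40.7 CPM (64.8% ± 3.11 gone), most of it by 10 nM (50.9%). At the slow end, next to ID1, stood SOCS2, an inhibitor of cytokine signaling, at 104, 95.9 and 82.0 CPM (31.6% ± 3.005 gone). FGFR3, an FGF receptor, was at 222, 206 and 175 CPM (32.6% ± 2.12 gone). The proprotein convertase FURIN, which cleaves BMP precursors, lay between them at 182, 155 and 119 CPM (54.1% ± 2.04 gone).

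By the naming rule, the lower genes with the smallest percent gone were SHB, an SH2 adaptor protein, ZBTB46, a zinc finger repressor, the lncRNA ENSG00000280441 and FGF4. SHB was at 79.6, 74.3 and 64.2 CPM with 26.6% ± 3.25 gone and continued to 21.9 CPM at 300 nM. ZBTB46 was at 65.3, 62.0 and 55.3 CPM with 29.9% ± 5.05 gone and continued to 31.6 CPM. ENSG00000280441, on the short arm of chromosome 21, was at 63.2, 52.7 and 50.9 CPM with 27.6% ± 3.74 gone. These genes and ID1 and ID3 lost the larger part of their response only above 30 nM.

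Genes higher with LDN and named by the rule spanned enzymes, receptors and patterning factors. PRICKLE1, a planar cell polarity protein (chr12:42456757-42590355, - strand), was at 3.34, 7.59 and 13.1 CPM, 3.84-fold higher at 30 nM, with 29.8% ± 2.28 gone against a level of 36.1 CPM at 300 nM. Its log2 ratio was 1.94 on CPM and 0.64 on the deposited FPKM, so the size of its fold depends on the table. LRAT, a retinol-esterifying enzyme (chr4:154626945-154753120, + strand), was at 8.14, 14.6 and 21.5 CPM with 34.9% ± 2.55 gone. IRX2, an Iroquois homeobox factor, was at 12.0, 17.5 and 23.9 CPM with 27.3% ± 2.37 gone. FZD7, a Wnt receptor, was at 205, 245 and 270.3 CPM with 26.2% ± 1.44 gone, and at 30 nM it stood far below the untreated level of 700.3 CPM. P2RY1 and LPIN1 had 25.3% ± 10.04 and 29.4% ± 5.82 gone, and with the untreated library as the end of the range 6.59% and 47.3%. For FZD7 that value was 13.3%. The higher end of the percent gone held HSD11B2 (6.71, 7.91 and 10.9 CPM, 55.2% ± 9.54 gone), PPP1R3B (13.8, 16.6 and 21.1 CPM, 51.0% ± 6.97) and TNFRSF8 (23.6, 26.7 and 35.04 CPM, 44.4% ± 4.94), next to FOXD3 and HESX1.

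Several of the largest differences came from genes whose reads can be split with a near copy or an overlapping gene, and these levels are uncertain. ENSG00000285976 was at 41.3, 36.2 and 0.307 CPM, but it overlaps PTP4A1, and their sum was 124, 119.6 and 116 CPM. SERF1A was at 2.33, 24.2 and 18.9 CPM, and with its copy SERF1B the sum was 63.7, 65.3 and 64.9 CPM, a log2 ratio of 0.03. Neither sum moved by 2-fold. RGPD5 was different, since it was at 149, 84.1 and 47.2 CPM and its sum with RGPD6 was still lower with dose, at 293, 214 and 144 CPM, with 66.5% gone for the sum against 83.6% for RGPD5. The lncRNAs ENSG00000277991 and ENSG00000275496 of the short arm of chromosome 21 (13.3, 7.24 and 3.38 CPM and 3.17, 13.7 and 20.9 CPM) were not ordered over all 5 doses, and the log2 ratio of ENSG00000275496 was 2.68 on CPM and 1.07 on FPKM.

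Some genes turned within the dose range, with the 30 nM library beyond both ends, among them the early-lost genes above 100% gone. ZACN was at 11.6, 12.2 and 6.15 CPM and 11.3 CPM at 300 nM, and FAM156B, which has the copy FAM156A, at 8.002, 17.0 and 1.69 CPM and 6.004 CPM. The sum of FAM156B and FAM156A was 35.6, 33.2 and 29.3 CPM and 27.4 CPM at 300 nM and did not turn at 30 nM. On the upper side SLC46A1, a folate transporter, was at 8.35, 9.83 and 12.3 CPM and 9.90 CPM, and NPIPA9, of a multicopy family, at 29.2, 42.2 and 42.08 CPM and 32.7 CPM. ENSG00000283761 (10.8, 3.30 and 5.01 CPM) and ENSG00000270149 (10.9, 19.1 and 17.7 CPM) overlap other genes. NPIPA9 and the last 2 genes were already turned at 10 nM. The turn of ZACN rests on the single library at 30 nM, while SLC46A1 at 100 nM (11.0 CPM) also lay above both ends.

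The time course gave levels of the same genes in other cultures without LDN, by another RNA extraction and with rRNA depletion in place of polyA selection, so levels are compared only within it. The lower responders were mostly higher at 4 h there. Their median log2 ratio of 4 h to the mean of 0 h was 1.54 for 78 early-lost, 1.71 for 321 graded and 1.67 for 23 late-lost genes. The median log2 ratios of 42 h to 4 h were -1.08, -0.25 and -1.18. No median over all genes was taken for these ratios. The classes also differ in level, with medians of 4.73, 8.30 and 2.16 CPM at 0 nM LDN, so the contrast between them is not read further. NOG was at 0.395 and 0.393 CPM at 0 h and 20.2 CPM at 4 h and 149.8 CPM at 42 h. SMAD6 was at 6.59 and 7.78 CPM at 0 h and 308 CPM at 4 h and 708 CPM at 42 h. ID3 was at 29.0 and 33.5 CPM at 0 h and 253 CPM at 4 h and 191 CPM at 42 h. All 3 were higher at 4 h than in either 0 h library.

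The higher responders had a median log2 ratio of 4 h to 0 h of -0.74 over 94 genes. OTX2 was at 71.8 and 76.3 CPM at 0 h and 21.6 CPM at 4 h and 0.686 CPM at 42 h, and PRDM14 at 53.7 and 63.9 CPM at 0 h and 20.0 CPM at 4 h and 0.196 CPM at 42 h. Both were lower at each of these times than in either 0 h library, in the direction opposite to that with LDN. POU5F1 differed between the 0 h libraries (1003 and 1721 CPM) by more than it did among the 3 doses of LDN. No test was made between the experiments.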

How the data were processed

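RNA-seq was available from 13 libraries of GFP::SMAD4 RUES2 hESCs, of which the libraries with 0, 10 and 30 nM LDN were compared, with those at 100 and 300 nM, the untreated library and the time course as reference. Reads were trimmed by the authors (Cutadapt), aligned by STAR 2.7.8a on GRCh38 and quantified per gene by RSEM 1.3.3, and the ENSEMBL release is not given in the sources used here. The deposited estimated counts are whole numbers without scaling for depth. The deposited FPKM values, normalized by the authors for length and depth, served for 1 alternative, and the time-course FPKM was not used. Each table holds 61546 features, 5 of which are not genomic and take at most 0.0018% of counts in the dose response, and these were left out of tests. The strand setting of the counting is not given in the sources used here.

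CPM was computed on the column total, and log2 ratios after adding 0.1 CPM. The trend over dose steps 0, 1 and 2 was fitted with edgeR 4.0.16 (TMM, quasi-likelihood, genes averaging 1 CPM or more, Benjamini-Hochberg, threshold 0.05), with 1 residual degree of freedom per gene, pooled over genes. The study regresses on imaged SMAD4 level over 5 doses, and dose order was used here. Simulated data with 200 changed genes among 14847 gave 81 of 100 at a slope of 0.5 log2 per step and 100 of 100 at 1, with 12 false calls. The simulated slopes were exactly linear, and the dispersion was that fitted to these 3 libraries, without variation between cultures. The false calls therefore do not measure the error rate of the calls in the real data. Counting errors assume Poisson counts and 95% intervals cover counting only. Further software was DESeq2 1.42.0 under R 4.3.3, and pandas 2.3.3, numpy 2.4.6 and matplotlib 3.10.9 under Python 3.11.15. Samples were grouped by the GEO labels.

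Genes were named as the up to 4 members of each of 18 lists with the largest log2 ratio (all ID genes), NANOG, SOX2, POU5F1, GATA3 and TFAP2C, the 8 responders (the files give no biotype) with the largest and the 4 with the smallest percent gone in each direction (higher end of at least 10 CPM, levels ordered by dose), the 6 genes with the largest fold and the 4 that turn most at 30 nM, in each direction. Some genes of the lists are not reported here. The members and lists were chosen with earlier results of these data known. Alternatives covered scaling, filters, pseudocount, dose coding, FPKM and the end of the range.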

Additional observations from a re-analysis of the deposited data

How the results depend on the processing

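Among named genes only LEF1 (0.09) and COL1A2 (-0.13), which did not pass the test, changed the sign of their log2 ratio, both on FPKM. Calls of the trend were 833 falling and 709 rising, and DESeq2's Wald test gave 176 and 104 while dose in nM gave 397 rising. The counts past 2-fold (163 lower and 42 higher) rest on weakly expressed genes, being 67 and 18 with 1 CPM added, 51 and 7 at a mean of at least 5 CPM, and 1327 and 507 without a filter. Early-lost genes (82 lower, 13 higher) numbered 43 and 20 on the log2 scale, 266 and 68 with responders of at least 1.5-fold, 18 and 1 at a mean of at least 5 CPM, 24 and 8 at a limit of 90%, and 23 of the higher ones on FPKM. Late-lost genes (28 lower, 18 higher) numbered 267 and 200 with the untreated library as the end of the range, 59 of the lower ones on the log2 scale, 45 and 32 on FPKM, 94 and 104 at 1.5-fold, and 3 and 1 at 5 CPM. The median of the higher genes was 17.7% with the untreated end. The causes were not tested, apart from fewer or more genes entering under a changed filter. Of the early-lost lower genes 41 were shared with FPKM and 35 with the untreated end. Of the values of named genes under alternatives 290 moved by less than their counting error interval and 54 by more, 33 of these on FPKM. No replicate could be left out, since each dose had 1 library. No paired analysis was possible because the doses compared have 1 library each and share no replicate numbers beyond the 1 of a single sample.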
